A study of Macaca fascicularis with 23 samples.

Results

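The comparison described here set the cynomolgus monkey (Cm) lines that were reported to keep an episomal reprogramming vector against the lines that were not. The vector, pCXLE-hOCT3/4-shp53-F, carries human OCT3/4 and a small hairpin RNA against p53. The lines that kept it, by the study's main text, were the induced pluripotent stem cell (iPSC) lines L3 and L6, made from liver cells, and S6, made from stomach cells. The vector-free lines were the embryonic stem cell (ESC) lines CMK6, TRSK and CMK9, which were never given the plasmids, and the iPSC line S12, made from stomach cells. Each of the 7 lines was cultured in 3 media, so the vector-keeping set held 9 libraries and the vector-free set 12, together 21 of the 23 libraries of the series. The primed state was maintained in bFGF/KSR medium. For the naïve-like state, K5cLD medium supplied LIF and doxycycline (Dox), which drives KLF2 and NANOG transgenes carried by naïve-like and differentiated cells, and differentiated cells came from the same medium without LIF and Dox (K5c). The remaining libraries were the somatic liver and stomach cells.

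The tumour suppressor p53 is a transcription factor that halts the cell cycle or starts apoptosis after DNA damage and stress, in part by switching on the cell cycle inhibitor CDKN1A. Low p53 activity lets more somatic cells pass through reprogramming, which is why a p53 hairpin is often placed on reprogramming plasmids. OCT3/4, encoded by POU5F1, holds pluripotent cells undifferentiated. Episomal plasmids are not meant to integrate and are usually diluted out as the cells divide.

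The grouping has limits that belong beside every value below. All 4 iPSC lines came from 1 female foetus and each line is 1 clone, whereas CMK6 and TRSK are male and CMK9 is female. Vector status and origin from that foetus by reprogramming therefore cannot be told apart except through S12, the single iPSC line in the vector-free set. The sources also disagree on the stomach lines. The main text names S6 as vector-keeping, and a supplementary legend names S12 in its place, so both groupings were tested. Exogenous OCT3/4 transcript was reported in L3 and S6. The vector itself was not measured in the sequencing data, and whether reads assigned to the monkey POU5F1 include reads from the human gene was not tested.

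Expression was measured by SC3-seq, a method that sequences cDNA from its 3′ end after amplification. Values are RPM, the reads of a gene scaled to a common library total, taken as log2(RPM + 1), a scale on which the changes of low genes are understated. The genes analysed here, 8415 in number, make up 24.8% to 26.8% of the RPM of a PSC library, and 2776 of them exceeded 4 on the log2 scale in at least 1 of the 21 libraries. Depth was 861000 to 3425000 reads in vector-keeping libraries (median 2303000) and 1158000 to 7986000 reads in vector-free libraries (median 3326000). The level of 3 reads was 0.88 to 3.49 RPM in the former and 0.38 to 2.59 RPM in the latter, and this floor covers counting error only. There was 1 library per line and medium, so the mean of the 3 media was taken for each line and the 7 line means were compared, 3 against 4. In bulk RNA, fewer cells of a type and less RNA per cell cannot be told apart.

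Vector-keeping lines had more mRNA of the neural progenitor gene FABP7, and less of the collagen gene COL1A2 and of S100A6. The neural progenitor gene SP8 was also higher and the antigen-loading gene TAPBP lower. Each of these 2 kept an adjusted p under 0.05 in only 2 of 7 limma fits that left out 1 line. TAPBP passed the expression filter through vector-free libraries alone, so its values are given as a description. By limma with Benjamini-Hochberg adjustment, 36 of 2776 genes differed at an adjusted p under 0.05, which is 1.3% of the genes tested. Of these, 15 were higher (0.54%) and 21 lower (0.756%) in the vector-keeping lines. Some of the 21 passed the expression filter through vector-free libraries alone, and these are named below. At an unadjusted p under 0.05 there were 486 genes (17.5%). All 36 genes had line means that did not overlap between the sets, and all 36 kept their direction within each of the 3 media. Their line values did not overlap in primed cells for 24 genes, in the naïve-like state for 29, after differentiation for 35 and in all 3 media for 20. Across all tested genes, the 3 vector-keeping means lay above all vector-free means for 9.01% and below them for 8.68%. In differentiated cells alone these shares were 8.47% and 12.4%, and in the other media they were not counted. The 36 genes were chosen on the means of the same 3 media, so their agreement within media is not a separate check.

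**Figure D1:**
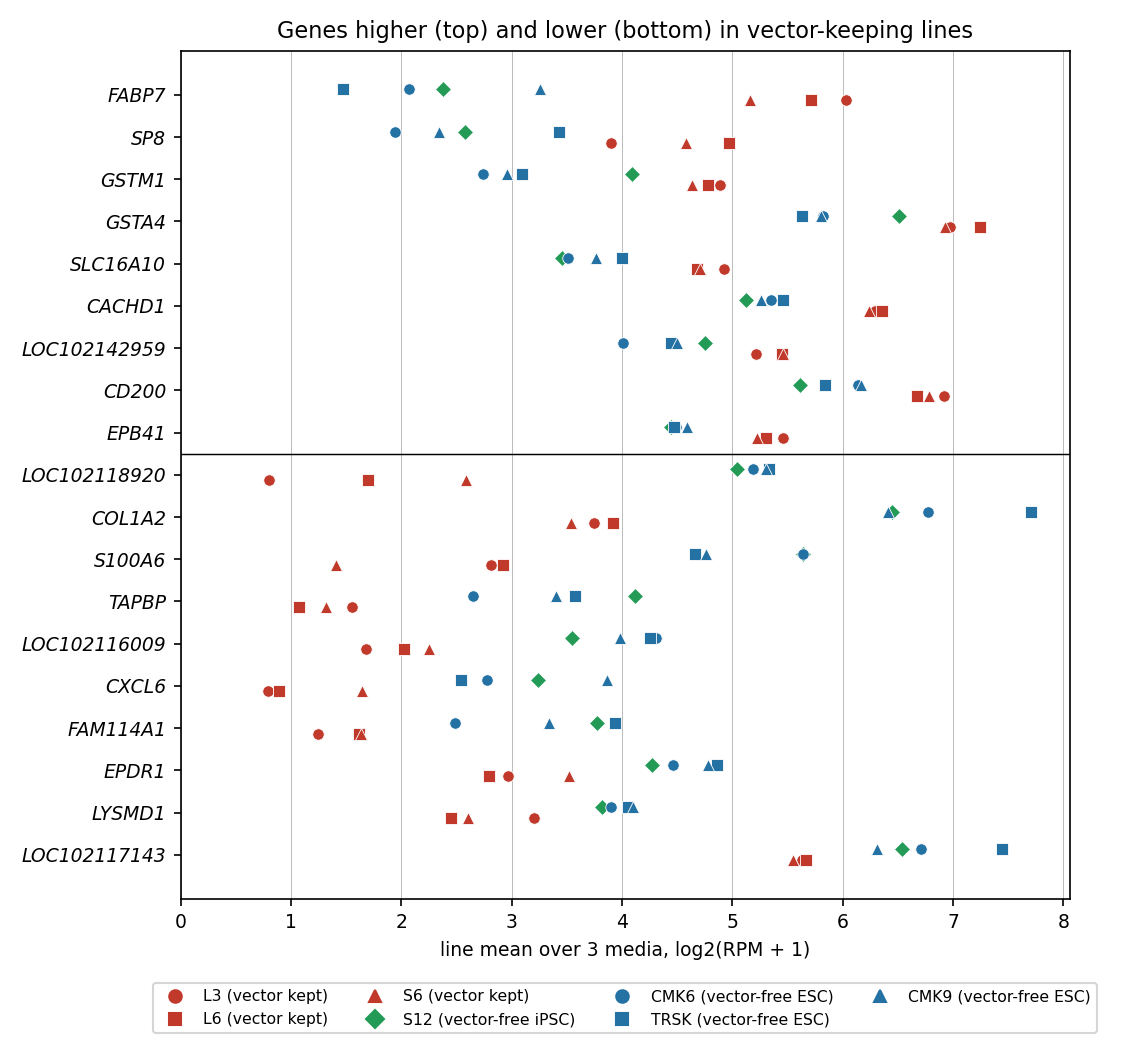
Line means over 3 media, as log2(RPM + 1), of the genes reported here with the largest rises (top) and the 10 with the largest falls (bottom) among genes past the threshold. Each symbol is 1 line, red for vector-keeping lines, blue for ESC lines and green for S12. The red symbols lie apart from all others for every gene, as the rule for choosing these genes required. S12 is the nearest of the other lines for GSTM1, GSTA4, LOC102142959, LOC102118920, LOC102116009, EPDR1 and LYSMD1.

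FABP7, a fatty acid binding protein of radial glia, had the largest rise. It reached 16.6 to 98.9 RPM in the 9 vector-keeping libraries (median 65.8) and 0 to 46.2 RPM in the 12 vector-free ones (median 4.13). In primed cells the values were 82.6, 80.2 and 29.1 RPM in L3, L6 and S6, and 6.77, 2.35, 0.63 and 3.99 RPM in CMK6, TRSK, CMK9 and S12. Within each medium the vector-keeping lines were higher than all others, and the highest vector-free value was that of differentiated CMK9. The log2 difference of the line means was 3.34 (standard error 0.39, adjusted p = 0.00275). SP8, a zinc finger transcription factor of the forebrain and limb bud, differed by 1.91 (standard error 0.38, adjusted p = 0.04), and its line values separated completely only in differentiated cells.

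The glutathione S-transferases GSTM1 and GSTA4, which conjugate glutathione to electrophiles, were higher by 1.55 and 1.11 (adjusted p = 0.04 and 0.0294). S12 lay nearest to the vector-keeping lines for both, with a GSTM1 mean of 4.09 against 4.63 in S6, the lowest of the 3. With origin as a term, that is against S12 alone, the differences were 0.68 (adjusted p = 0.231) and 0.54 (adjusted p = 0.127). Both belong to families of similar genes, so reads shared with a relative could move their values. The amino acid transporter SLC16A10 differed by 1.09 and CACHD1, which resembles a calcium channel subunit, by 1.00. CD200, a surface protein that restrains myeloid cells, differed by 0.85, the membrane skeleton gene EPB41 by 0.83 and the unnamed gene LOC102142959 by 0.95. These 5 genes had adjusted p values of 0.0057 to 0.0443. Also higher were PHGDH, the first enzyme of serine synthesis (0.79), PROM1, which encodes the stem cell surface protein CD133 (0.79), the mitochondrial gene CMC1 (0.76), the histone gene H3-3A (0.42) and LOC102130517, annotated as a pseudogene (0.40). LOC102130517 followed H3-3A across the libraries, with 794 and 1500 RPM in primed L3 and 426 and 775 RPM in naïve-like CMK6. Whether these 2 genes share reads was not tested.

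COL1A2, a chain of type I collagen, was among the genes with the strongest fall. It had 5.55 to 32.1 RPM in vector-keeping libraries (median 11.1) and 25.6 to 579 RPM in vector-free libraries (median 110). The vector-keeping line means were 3.75 in L3, 3.92 in L6 and 3.54 in S6 on the log2 scale. The vector-free means were 6.77 in CMK6, 7.71 in TRSK, 6.41 in CMK9 and 6.45 in S12. The sets did not overlap in any medium, and the log2 difference was -3.10 (standard error 0.28, adjusted p = 0.00107), or 8.57-fold lower. The somatic liver and stomach cells had 4832 and 4506 RPM of COL1A2, far above every PSC library.

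LOC102118920, a gene known in the files only by its number, fell most, by -3.52 (standard error 0.36, adjusted p = 0.00156). It had 0 to 10.5 RPM in vector-keeping libraries (median 2.92) and 28.3 to 48.5 RPM in vector-free ones (median 34.6). S100A6, a calcium-binding protein of fibroblasts and epithelia, differed by -2.80 (standard error 0.40, adjusted p = 0.00878), and its primed values overlapped, since CMK9 had 10.3 RPM there and L6 20.9. TAPBP, or tapasin, which loads peptides onto MHC class I, differed by -2.12 (standard error 0.38, adjusted p = 0.0294). Its vector-keeping libraries had 0 to 3.33 RPM, about the level of 3 reads, and its vector-free libraries had 1.96 to 20.9 RPM. TAPBP and LOC102118920 passed the expression filter through vector-free libraries alone, so their values are given as a description.

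Of the other genes with the largest falls, CXCL6, a chemokine for neutrophils, differed by -2.0 and FAM114A1 by -1.89, both low in most libraries. EPDR1 (-1.50), LYSMD1 (-1.21), LOC102116009 (-2.04) and LOC102117143 (-1.13) completed the 10, with adjusted p values of 0.00808 to 0.0443. CXCL6, FAM114A1, EPDR1, LYSMD1 and LOC102116009 passed the expression filter through vector-free libraries alone, so they too are given as a description. The remaining 11 that fell changed by -1.08 to -0.53. They included genes of the early secretory pathway, TMED5 (-1.08), KDELR2 (-0.58) and the chaperone DNAJB11 (-0.53). Lysosomal genes were LAMTOR5, a subunit of the Ragulator complex that anchors mTORC1 (-0.98, adjusted p = 0.0025), and the sialidase NEU1 (-0.89). The transferrin receptor TFRC (-0.72), desmoplakin or DSP, a desmosome protein (-1.03), DCBLD1 (-1.03), MPZL1 (-0.61), the actin regulator WDR1 (-0.60) and the adaptor SHC1 (-0.59) made up the rest. In both somatic libraries, 6 of the 21 genes that fell were above all 21 PSC libraries and 7 of the 15 that rose were below all of them, against 5.0% and 16.2% of all genes tested.

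S12 stood apart from all other lines. Euclidean distances between line means over the 2776 genes were 18.8 to 21.8 among the 3 vector-keeping lines and 26.4 to 28.9 among the 3 ESC lines. S12 lay 33.6 to 36.4 from every other line, and the vector-keeping lines lay 30.3 to 32.5 from the ESC lines. The pseudo-F of the 2 sets, the ratio of the distances between sets to those within them, was 2.36, and no other of the 35 divisions of 7 lines into 3 and 4 gave as high a value (exact permutation test, one-sided, p = 0.0286, the smallest p possible). In differentiated cells alone it was 2.86 (exact permutation test, p = 0.0286), in naïve-like cells 1.76 (p = 0.0571) and in primed cells 1.26 (p = 0.171). With the supplementary legend's sets, L3, L6 and S12 against the rest, pseudo-F was 1.36 (exact permutation test, p = 0.171). ESC against iPSC lines, a division added after the data were seen, gave 2.2 (exact permutation test, p = 0.0571).

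**Figure D2:**
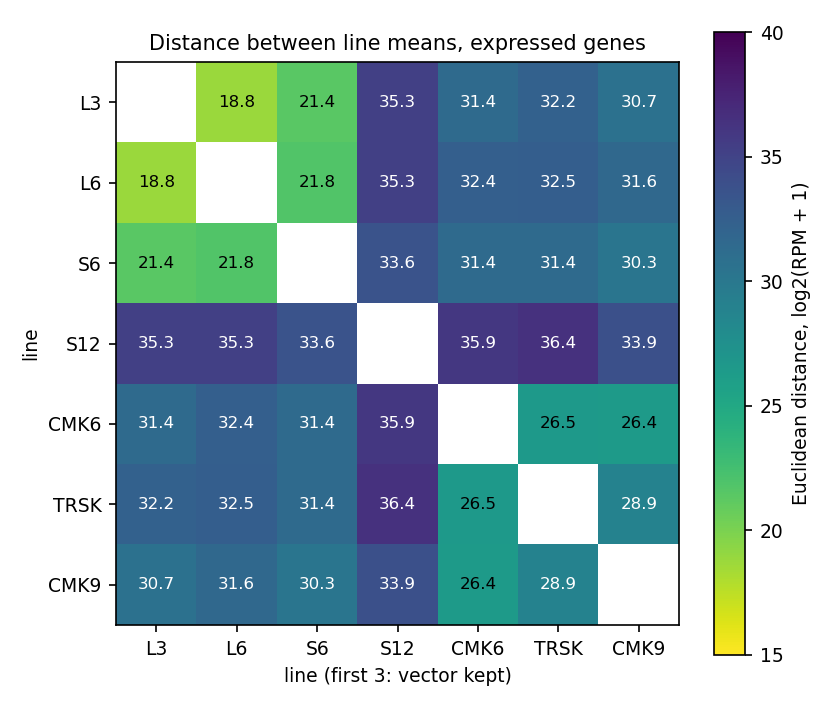
Euclidean distances between the 7 line means in log2(RPM + 1) over the expressed genes, with darker cells for larger distances. The vector-keeping lines L3, L6 and S6 form the closest trio (18.8 to 21.8), and S12 is the most distant line from all others (33.6 to 36.4).

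Leaving out S12 gave 160 genes (5.76%), 82 higher and 78 lower, among them all 36. That is a comparison of iPSC with ESC lines, and S12, which it did not use, lay nearer to the ESC mean for 76 of the 160 genes and nearer to the vector-keeping mean for 84. On a scale from 0 at the ESC mean to 1 at the vector-keeping mean, its median position was 0.54. With the legend's sets 0 genes passed the limma threshold, with 188 at an unadjusted p under 0.05. These sets share L3, L6 and all ESC lines with the main ones, so the signs of the 36 genes are not a separate check. With ESC or iPSC origin as a term in the fit, the contrast is of L3, L6 and S6 with S12 alone, which is assumed to vary like the other lines. Differences there were 3.25 for FABP7, -2.72 for COL1A2 and 0.68 for GSTM1. Among the female lines only, 24 of the 36 passed, where 50 of all 2776 genes did so. The 36 genes were chosen from these same lines, so none of these fits is a separate check.

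The genes supplied by the reprogramming plasmids did not pass the threshold. Of the 6 genes listed, 4 were analysed here. POU5F1 had line means of 6.79, 6.63 and 6.41 in L3, L6 and S6, within the range of 5.25 in S12 to 7.88 in CMK9, and the log2 difference was -0.05 (standard error 0.46, adjusted p = 0.971). Its values differed by medium. In naïve-like cells POU5F1 had 202, 183 and 137 RPM in L3, L6 and S6, all below the 575, 469, 433 and 289 RPM in CMK6, TRSK, CMK9 and S12 (difference -1.31, adjusted p = 0.0728). In differentiated cells it had 27.6, 21.3 and 20.2 RPM against 3.59, 12.2, 69.2 and 4.68 RPM, so that only CMK9 was above the vector-keeping lines. In primed cells S12 had 32.8 RPM and the other 6 lines 207 to 427 RPM.

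SOX2, the partner of OCT3/4 in pluripotent cells, differed by 0.55 (standard error 0.15, adjusted p = 0.0987), and its vector-keeping means of 8.93 to 9.07 lay above all vector-free means, 8.03 to 8.68. In differentiated cells SOX2 had 517, 579 and 653 RPM in L3, L6 and S6 and 220, 471, 330 and 324 RPM in CMK6, TRSK, CMK9 and S12. The RNA-binding gene LIN28A differed by 0.44 (adjusted p = 0.256) and MYCL by 0.54 (adjusted p = 0.286). In differentiated cells SOX2, LIN28A and MYCL were higher in every vector-keeping line than in every vector-free line, as were 8.47% of all genes, with adjusted p values there of 0.0537, 0.0501 and 0.169.

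**Figure D3:**
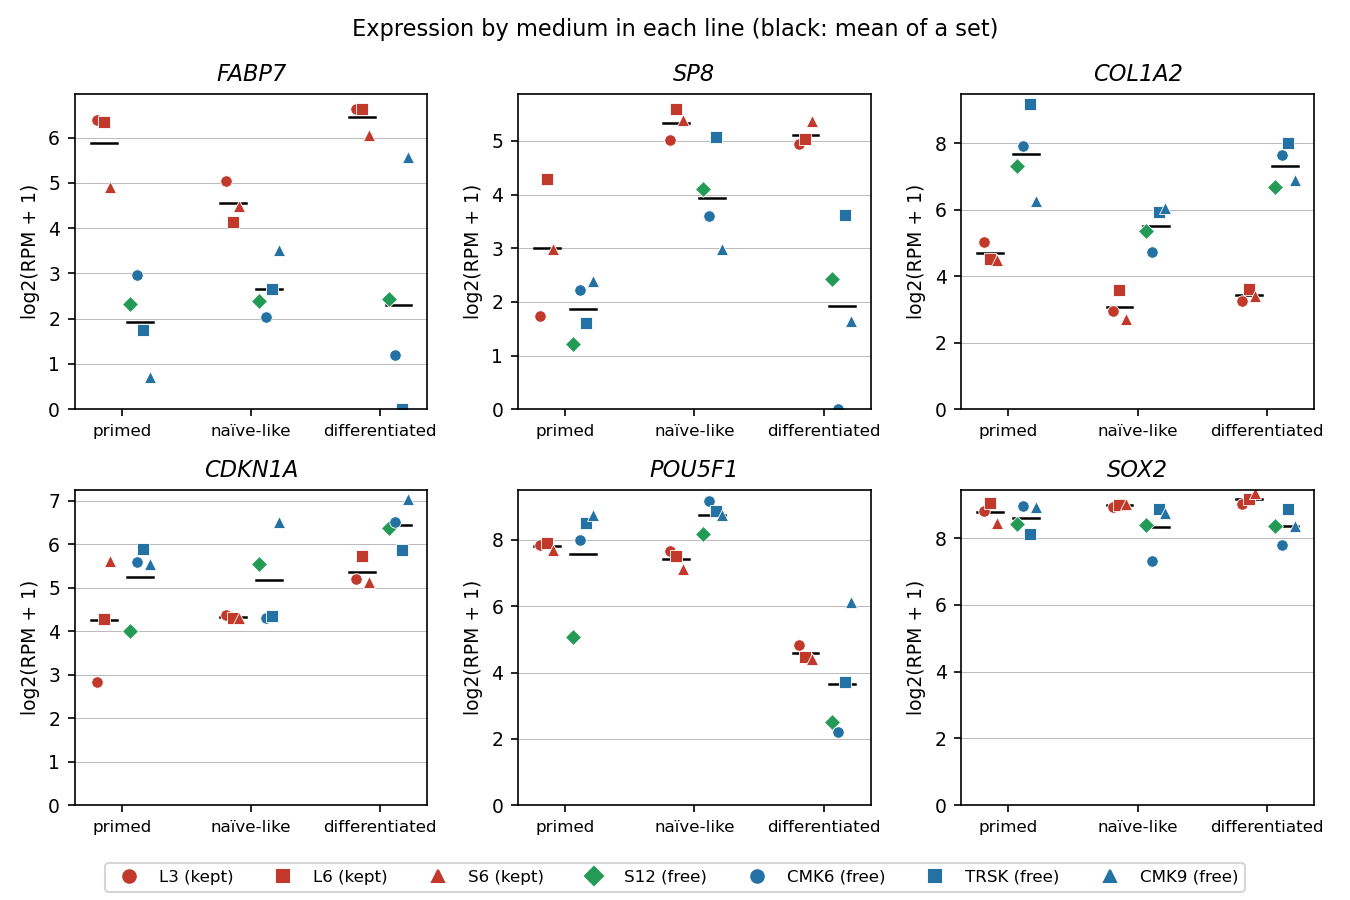
Expression as log2(RPM + 1) of 6 genes in primed, naïve-like and differentiated cells. Each symbol is 1 library, in red for vector-keeping lines, and black bars are the means of a set. FABP7 is higher and COL1A2 lower in the vector-keeping lines in every medium, SOX2 separates most in differentiated cells, and SP8 and CDKN1A separate in differentiated cells only.

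None of 19 expressed p53 target genes passed the threshold. A list of 56 targets was used, of which 23 were in the table. The log2 difference was below 0 for 16 of the 19 and above 0 for 3, with a median of -0.218 against -0.028 over all 2776 genes. In primed cells alone 10 were below 0 and 9 above, with a median of -0.084 against 0.017 over all genes. In naïve-like cells 15 were below 0 and 4 above, with a median of -0.578 against 0.012. In differentiated cells 15 were below 0 and 4 above, with a median of -0.55 against -0.085. For the means of the 3 media, 5 were lower and 1 higher at an unadjusted p under 0.05. The line means of 3 lay below all vector-free means and those of 1 above, where 8.68% and 9.01% of all genes did so. CDKN1A, which arrests the cell cycle, had means of 4.14, 4.78 and 5.02 in L3, L6 and S6 and of 5.47, 5.37, 6.37 and 5.31 in CMK6, TRSK, CMK9 and S12, a difference of -0.99 (standard error 0.28, adjusted p = 0.111). CDKN1A overlapped between the sets in primed and naïve-like cells. In differentiated cells it had 36.1, 52.3 and 34.0 RPM against 90.1, 57.6, 132 and 82.1 RPM (adjusted p = 0.0501).

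PHLDA3, a brake on AKT signalling, differed by -0.89 (adjusted p = 0.111), the antiproliferative gene BTG2 by -0.87 (adjusted p = 0.206) and the RNA-binding gene ZMAT3 by -0.86 (adjusted p = 0.153). The phosphatase PTP4A1 differed by -0.54 (adjusted p = 0.082). GADD45A, a stress sensor, differed by -0.35 (adjusted p = 0.574), the kinase receptor EPHA2 by -0.19 (adjusted p = 0.733), and CCNG2 and FUCA1 by -0.30 and -0.32. For PERP, SESN1, PLK3, MDM4, CSF1 and PRDM1 the differences were between -0.22 and -0.03. The exceptions to the sign were ATF3 (0.26), IER5 (0.10) and SESN2, which restrains mTORC1. SESN2 had means of 5.23 to 5.58 in vector-keeping and 4.64 to 4.98 in vector-free lines, a difference of 0.60 (standard error 0.16, adjusted p = 0.0958). Without S12, CDKN1A, PHLDA3, BTG2 and PTP4A1 passed the threshold (adjusted p = 0.0473, 0.0372, 0.0394 and 0.0434), where 5.76% of all genes did so. Against S12 alone, with origin as a term, the differences of CDKN1A, PHLDA3 and BTG2 were -0.67, -0.50 and -0.14 (adjusted p = 0.387, 0.465 and 0.888), and that of PTP4A1 was -0.78 (adjusted p = 0.0236). With the legend's sets CDKN1A differed by -0.81 and SESN2 by 0.23.

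**Figure D4:**
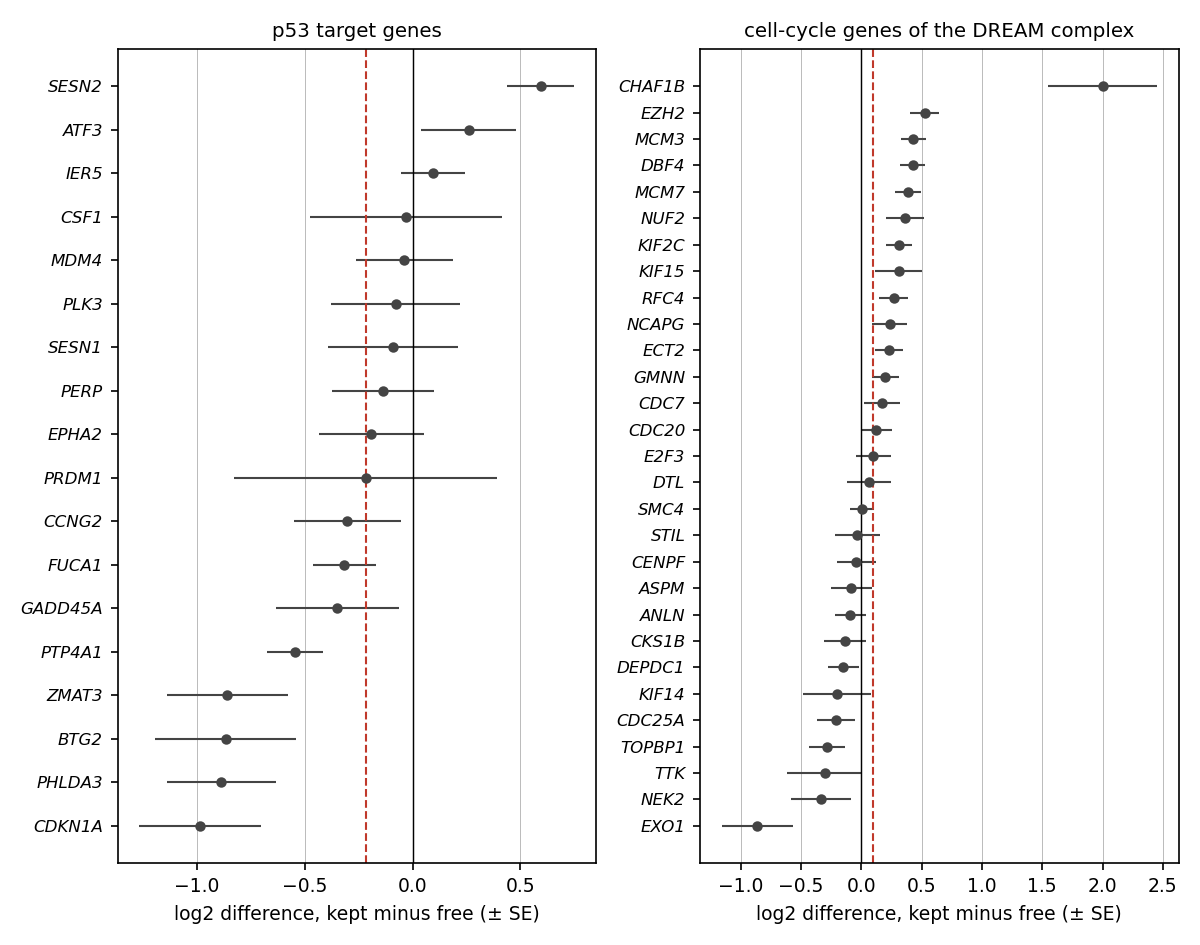
Log2 difference of line means, vector-keeping minus vector-free, with standard errors, for the expressed p53 target genes reported here (left) and cell cycle genes of the DREAM complex (right). The dashed line is the median of the whole list, -0.218 on the left and 0.101 on the right. Most p53 targets lie below 0, with SESN2 as the highest, and CHAF1B stands apart among the cell cycle genes.

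The DREAM complex represses cell cycle genes when p53 and CDKN1A are active. Among 29 expressed genes of this kind no gene passed the threshold, and the median difference was 0.101. At an unadjusted p under 0.05, 8 were higher and 1 lower, where 17.5% of all genes passed in either direction, and 8 had vector-keeping means above all vector-free means, as 9.01% of all genes did. CHAF1B, a subunit of the chromatin assembly factor, had 16.1 to 31.4 RPM in vector-keeping libraries, 12.3 to 13.4 RPM in S12 and 1.04 to 5.29 RPM in the ESC libraries. Its difference was 2.00 (standard error 0.45, adjusted p = 0.0606) and was 0.66 with origin as a term (adjusted p = 0.387). S12 thus lay between the ESC lines and the vector-keeping lines. CHAF1B passed the expression filter through vector-keeping libraries alone, so its values are given as a description. The histone methyltransferase EZH2 differed by 0.52 (adjusted p = 0.0627) and the replication helicase subunit MCM3 by 0.43 (adjusted p = 0.0785). Of 6 expressed apoptosis genes none passed, with the smallest p values for FAF1 (0.37), DFFA (-0.31) and CASP9 (-0.22).

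Among 9 expressed neural progenitor genes 2 passed, FABP7 and SP8, both higher. Over all genes 1.3% passed, which is the share to set beside this count and those of the lists that follow. Members of the same list went the other way without passing, with -1.11 for ZIC4 (adjusted p = 0.136) and -0.72 for NES (adjusted p = 0.117). Among 14 expressed fibroblast and mesenchymal markers, COL1A2 and S100A6 passed, both lower, and the median difference was -0.478 against -0.028 over all genes. The difference was below 0 for 10 of the 14. It was above 0 for 4, namely CCN2 (0.51), CYR61 (0.27), CAV1 (0.25) and TWIST1 (0.24). The summed level of the 15 markers in the table was 707 to 4203 RPM in vector-keeping libraries and 482 to 3911 RPM in vector-free ones, against 9222 and 14608 RPM in liver and stomach cells. In differentiated cells these sums were 727 to 1217 RPM and 1093 to 2888 RPM. In primed cells they were 3289 to 4203 RPM and 1063 to 3911 RPM. The difference in primed cells was above 0 for 7 of the 14 markers and below 0 for 7, with a median of 0.01. The part of mesenchymal marker levels in the fall of COL1A2 was not tested. The liver cells had 0 RPM of all 12 hepatocyte and stomach markers in the table, so the labelled organ was not visible in these markers.

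Of 14 expressed pluripotency genes none passed, and the largest difference was that of DPPA2 (-1.32, adjusted p = 0.131). The 16 pluripotency genes in the table summed to 2198 to 2464 RPM in differentiated vector-keeping cells and 1334 to 1877 RPM in differentiated vector-free cells. Most of these sums came from LIN28A and SOX2. LIN28A had 1186 to 1417 RPM there in vector-keeping lines and 634 to 1086 RPM in the others. SOX2 had 517 to 653 RPM and 220 to 471 RPM, and POU5F1 overlapped between the sets. The sums of the 16 genes overlapped in primed cells, 2026 to 2379 against 1171 to 2806 RPM, and in the naïve-like state, 2556 to 3016 against 2075 to 2932 RPM. Of 9 imprinted genes, 8 had a difference below 0, with a median of -0.29, and none passed. IGF2R, the receptor that clears IGF2, differed by -0.50 (adjusted p = 0.0583). Whether the listed genes are imprinted in these monkey cells was not tested. Of 9 antigen presentation and interferon genes 8 had a difference below 0, and TAPBP alone passed. TAPBP entered the test through vector-free libraries alone. Of 4 mesoderm and endoderm genes none passed, and AFP, which encodes alpha-fetoprotein, differed by 2.05 (adjusted p = 0.0822).

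The number of genes past the threshold differed between the media. Within primed cells it was 0 (0.0%), with 184 at an unadjusted p under 0.05. Within naïve-like cells it was 1 (0.036%), namely LOC102118920, which entered the test through vector-free libraries alone. Within differentiated cells it was 96 (3.46%), of which 31 were higher, 65 lower and 24 also among the 36. Such counts do not test whether the sets differ more in one medium than in another. The responses from primed to naïve-like and from naïve-like to differentiated cells were tested, and that from primed to differentiated cells was not tested. The differentiated vector-keeping libraries had a median of 942000 reads and the primed ones 2303000, and the part of depth was not tested. In differentiated cells, COL6A1, a chain of type VI collagen, differed by -1.94 (adjusted p = 0.0233), and THBS2, a matrix glycoprotein, by -0.95 (adjusted p = 0.0359). With COL1A2, all 14 mesenchymal markers had a difference below 0 there, and 5 lay below all vector-free lines, where 12.4% of all genes did so. Of 19 p53 targets 7 did so in differentiated cells, and ZMAT3 (-1.02, adjusted p = 0.0244) and EPHA2 (-1.20, adjusted p = 0.0179) passed. From the list of imprinted genes, IGF2R (-0.90) and PEG10 (-0.74) passed as well.

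AFP, a marker of visceral endoderm and foetal liver, was higher in differentiated vector-keeping cells by 3.80 (adjusted p = 0.0277). It had 122, 150 and 138 RPM in L3, L6 and S6 and 2.29, 2.19, 28.7 and 29.8 RPM in CMK6, TRSK, CMK9 and S12, and it was listed at 0 in the liver and stomach cells. Other genes of differentiated cells, chosen after their values were seen, were PTPRZ1, a phosphatase receptor of neural progenitors (1.92, adjusted p = 0.0285), and the homeobox gene NKX6-1 (2.77, adjusted p = 0.00982). On the lower side, BMP5, a bone morphogenetic protein, differed by -2.64 (adjusted p = 0.0244) and the receptor NOTCH2 by -1.25 (adjusted p = 0.00334). NOTCH2 had 46.8 to 60.9 RPM in the vector-keeping lines and 113 to 142 RPM in the others.

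For the conversion to the naïve-like state, the change from primed to naïve-like cells was taken for each line and compared between the sets. No gene passed (0.0%) in limma, with 157 genes at an unadjusted p under 0.05 (5.66%). ZIC4, a zinc finger gene of the neural plate, fell on conversion in L3, L6 and S6 by -1.18, -2.50 and -1.85 on the log2 scale and rose in CMK6, TRSK, CMK9 and S12 by 0.57, 2.57, 3.59 and 1.31 (difference -3.85, adjusted p = 0.376). Naïve-like ZIC4 levels were 1.13 RPM in L3, the level of 3 reads there, and 0 in L6 and S6. ZIC4 passed the expression filter through vector-free libraries alone. HEG1, a receptor of endothelial junctions, changed by -1.59 to -1.52 in the vector-keeping lines and changed by -0.47 to 0.38 in the others (adjusted p = 0.376). None of the 8 other genes that the naming rule gave for this response passed either, with differences of -1.94 for LOC102127449, -1.56 for NFE2L3 and -1.04 for SLC4A7. On the higher side these were FAM221A (2.57), CTTNBP2 (2.01), SIM1 (1.88), LOC102126811 (1.52) and SMIM14 (1.19). FAM221A and SIM1 passed the expression filter through vector-keeping libraries alone.

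For the withdrawal of LIF and Dox, 1 gene passed (0.036%), with 270 at an unadjusted p under 0.05 (9.73%). FMO5, a flavin-containing monooxygenase, had 0, 4.43 and 0.58 RPM in naïve-like L3, L6 and S6 and 20.2, 35.9 and 28.7 RPM after withdrawal. In CMK6, TRSK, CMK9 and S12 it went from 6.23, 3.03, 0.86 and 9.43 RPM to 0.33, 0.91, 0 and 5.26 RPM. Thus FMO5 rose in all 3 vector-keeping lines and fell in all 4 vector-free lines, with a difference of 5.09 between the responses (standard error 0.53, adjusted p = 0.0223). The fall in CMK9 was from the level of 1 read to 0. Most naïve-like values were near the level of 3 reads, and the call was lost with a pseudocount of 0.1, a stricter filter, quantile normalisation or the legend's sets, when all genes were kept, with origin as a term, and when any line other than L6 was left out. FMO5 entered the test through the vector-keeping libraries alone, since no vector-free library passed the expression filter for it.

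SIM1, a transcription factor of hypothalamic neurons, also entered the test through vector-keeping libraries alone, so its values are given as a description. Every primed library had 0 RPM of SIM1. In the naïve-like state it had 1.51, 5.54 and 2.04 RPM in L3, L6 and S6 and was listed at 0 in the 4 vector-free lines, and in differentiated cells it had 8.50, 28.6 and 30.8 RPM against 0 in CMK6, TRSK and S12 and 0.21 in CMK9. The withdrawal response differed by 2.43 (standard error 0.39, adjusted p = 0.109). The other genes named for withdrawal did not pass. The higher ones were VTCN1, an inhibitor of T cell activation (2.84), MBOAT1 (2.71) and ITPR3, a calcium channel of the endoplasmic reticulum (2.61). The lower ones were SPON2, an extracellular matrix protein (-2.44), GORAB (-1.68), KLHDC10 (-1.40), OLFML3 (-1.90) and TMED5 (-1.41), with adjusted p values of 0.071 to 0.151 over all 8. MBOAT1, ITPR3 and SPON2 passed the expression filter through vector-free libraries alone.

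**Figure D5:**
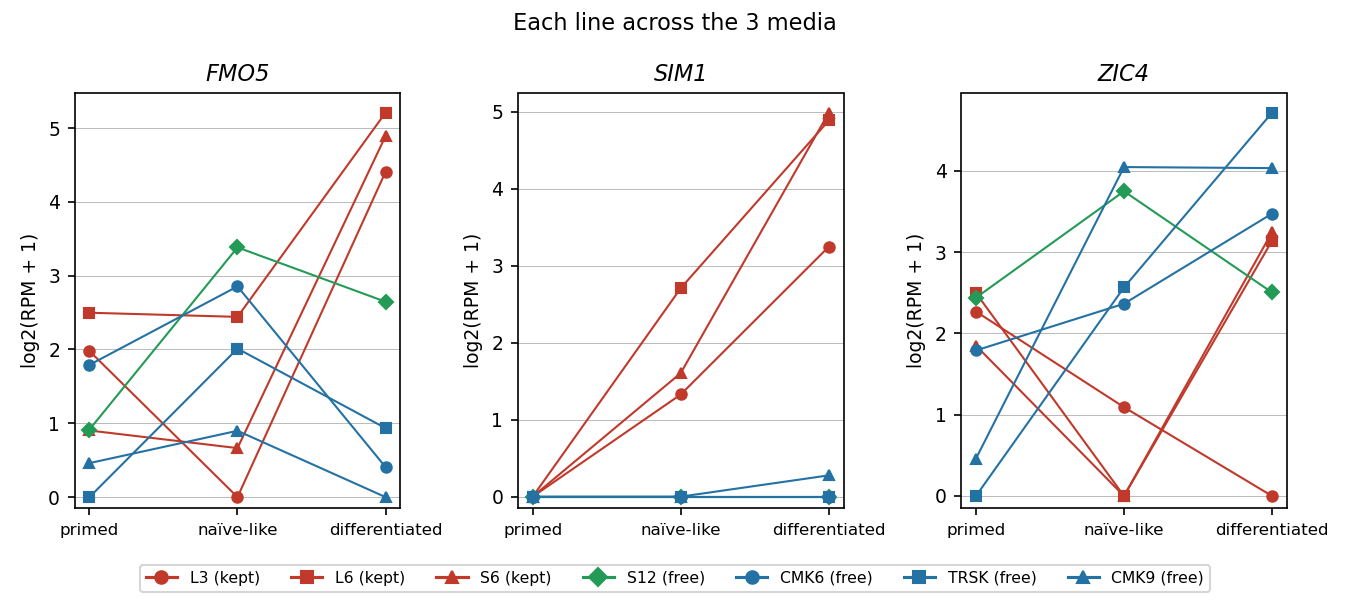
Expression as log2(RPM + 1) of FMO5, SIM1 and ZIC4 across primed, naïve-like and differentiated cells, with 1 line drawn per cell line and red for vector-keeping lines. FMO5 rises on withdrawal in the red lines only, SIM1 is seen in the red lines only apart from 0.21 RPM in differentiated CMK9, and ZIC4 falls on conversion in the red lines and rises in the others.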

How the data were processed

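SC3-seq data of 21 PSC libraries were used, and the 2 somatic libraries served as a reference only. The authors deposited RPM values, 1 column per library without pooling. Per the labels they used cutadapt 1.3, TopHat 1.4.1 and Cufflinks 2.2.0, and the build is macfas5. A table of 8415 genes was analysed here, after 1 incomplete row was left out, and genes beyond it were not. Gene IDs matched the RefSeq annotation for 5564 and not for 2851, and 980 symbols came from it. Between 88.1% and 93.2% of the values above 0 were whole multiples of 1 read (within 0.02 of a read, or 0.0001 of the value where larger), so count tests were not used, and the step gave the depth.

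Line means of log2(RPM + 1) over the 3 media, which were balanced within each line, were tested between the sets by limma 3.58.1 under R 4.3.3 with a mean-variance trend, two-sided. Responses were differences between media within a line. A gene was expressed above 4 in at least 1 library. With 1 library per line and medium, p-values measure the spread between lines. Pseudo-F was tested by exact permutation. Tables were handled in Python 3.11.15. In simulated data with 2776 genes, the comparison of sets recovered 145 of 200 genes changed by 1 on the log2 scale, with 14 false calls. It recovered 191 of 200 changed by 2, with 4 false calls, and made 0 calls without changed genes. The vector-keeping lines lay closer together (distances 18.8 to 21.8) than the vector-free lines (26.4 to 36.4). Whether these counts of calls hold for sets of such unequal spread was not tested.

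Named were the listed reprogramming factors and p53 targets, the 10 largest rises and falls (5 for responses, filled by smallest p) among genes without overlap of the lines, and up to 3 members of other lists. Line sets and gene lists were chosen with earlier results of these data known. Values of some of the genes this rule gave are not reported here, although the counts include them.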

Additional observations from a re-analysis of the deposited data

Results flagged for a closer look

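The withdrawal response of FMO5 differed between the line sets by 5.09 on the log2 scale (limma, adjusted p = 0.0223), with a rise in 3 of 3 vector-keeping lines and a fall in 4 of 4 vector-free lines. The fall in CMK9 was from 0.86 RPM, the level of 1 read there, to 0. FMO5 passed the expression filter in vector-keeping libraries only. In 3 further cases 1 of the 4 vector-free lines lay far from the others, by the ratio of its gap to the whole range. For SIM1 on withdrawal this ratio was 1.0, because CMK9 had 0.21 RPM and the other vector-free lines 0 in both media. For the p53 target CDKN1A it was 0.852, with CMK9 as the highest line. For EZH2 it was 0.884, with TRSK as the lowest line. Of 90 such groups of 4 lines tested 3 were flagged, and chance alone flags about 1 in 20.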

How the results depend on the processing

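The count of 36 genes between the line sets was 32 with a pseudocount of 0.1, 32 with a stricter filter, 43 with quantile normalisation, 45 with library centring and 50 among female lines. Keeping all genes gave 12, and dropping the mean-variance trend gave 21. By limma it was 0 with the supplementary legend's sets and 0 for L3 and S6, the lines with exogenous OCT3/4, against the others, with 188 and 151 genes at an unadjusted p under 0.05. It rose to 146 with origin as a term and 287 with iPSC lines only, both of which set the vector-keeping lines against S12 alone and assume that it varies like the others, and to 122 with line as a random block over all libraries. Within media it was 0, 1 and 96. Leaving out 1 line in turn gave 5 to 160 genes, with 5 without L3, 6 without L6, 12 without S6, 18 without TRSK, 14 without CMK9 and 160 without S12. COL1A2, FABP7, S100A6, LAMTOR5 and LOC102118920 passed in all 7 of these fits, and 9 of the 36 genes passed in at least 4 of the 7. LOC102118920 entered the test through vector-free libraries alone, so its passing is given as a description. SP8 and TAPBP passed in 2 each. None of the named results that passed its threshold turned its direction.

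The conversion response gave 1 gene with origin as a term. The single withdrawal gene was lost (0 genes) with a pseudocount of 0.1, the stricter filter, quantile normalisation, the legend's sets, exogenous OCT3/4, iPSC lines only and female lines only, FMO5 was not among the 2 genes with origin as a term nor the 1 gene called when all genes were kept, and leaving out lines gave 0 to 1, with 0 unless L6 was the line left out.

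Pseudo-F was 1.36 with the legend's sets, 1.18 by exogenous OCT3/4, 2.2 by ESC or iPSC origin, 2.33 among female lines, 1.26 in primed and 1.76 in naïve-like cells, none past the threshold, and 2.86 in differentiated cells, which passed (exact permutation p = 0.0286). It was 1.67 to 3.09 with 1 line left out. Neither these fits, with 15 or 20 divisions, nor the female lines, with 10, allow a p under 0.0667 or 0.1, so they could not pass. No paired analysis was possible because the line sets share no line and the labels give no replicate numbers that join them. The cause of these shifts was not tested. Depth limits genes near 0.38 to 3.49 RPM, the level of 3 reads.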
